A study of Mus musculus with 8 samples.

Results

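Foxo transcription factors, insulin signalling and gluconeogenesis were described in mouse AML12 hepatocytes with stable expression of Zfp125, compared with AML12 cells carrying the empty vector (EV), on 4 arrays per group. The members are 10 genes: Foxo1, Foxo3, Foxo4, Insr, Irs1, Irs2, Ppargc1a, Pcx, Pck1 and G6pc. Every transcript cluster (the set of probes that an Affymetrix MoGene 2.0 ST array reads as 1 transcript) whose platform annotation gives one of these symbols was taken, which gave 13 of 41345 clusters. Foxo1, Irs1 and Irs2 have 2 clusters each, numbered here from the brighter to the dimmer. The strand and the place that a cluster reads were not checked. Thus 2 clusters with 1 symbol may not measure the same RNA. AML12 is a hepatocyte line from the liver of a mouse that carries a transgene for human transforming growth factor alpha. G418 was used to select both lines, and the cells were then held in control medium. The labels do not say whether that medium held insulin or dexamethasone, which promoter drives Zfp125, or whether a group is 1 clone or a pool. Nor do they state that the replicates came from separate cultures, so the p-values reflect the spread among these arrays, part of which may be technical. Zfp125 encodes a zinc finger protein, is named by no cluster in the tables used, so its own level was not available to check the labels.

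In liver, insulin binds its receptor, which phosphorylates the insulin receptor substrates Irs1 and Irs2, and these recruit phosphoinositide 3-kinase and activate the kinase Akt. Akt phosphorylates Foxo proteins, which then leave the nucleus, so that the genes they drive in fasting are shut down. In the fasted hepatocyte, Foxo1 and the coactivator encoded by Ppargc1a raise the enzymes of gluconeogenesis, the making of glucose from lactate, amino acids and glycerol. Most of this control acts on proteins, and the arrays measured RNA.

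All values are log2 expression values, and changes are Zfp125 minus EV cells on the log2 scale with their standard error (SE). A change was called when its p from limma, adjusted by the Benjamini-Hochberg method over all 41345 clusters, was under 0.05. Array medians were 4.32 to 4.37, correlations between arrays were 0.977 to 0.984, and by these measures no array stood apart. The median of the cluster means, 4.34, is used below to say that a cluster is dim. Of 9 measured hepatocyte markers, 1 was dim and the highest mean was 12.72. Their summed level (log2 of the sum of the linear values) was 13.85 to 13.89 in Zfp125 cells, against 14.10 to 14.26 in EV cells, which do not overlap. Of the 9, 0 were called, 8 had a negative change, with a median of -0.38, and 5 were lower and 0 higher at an unadjusted p under 0.05, beside 4.56% lower over 22180 genes. Ahsg, the gene of fetuin A, was at -1.33, Serpina1c at -0.67 and Apoa1 at -0.61. Alb was at -0.48, Hnf4a at -0.38, Tdo2 at -0.15, Serpina1a at -0.11, Apob at -0.07 and Ttr at 0.08. Alb and Ttr were the brightest of the 9 and weigh most in the sum. Markers of stellate cells, macrophages, endothelial cells and adipocytes had no mean above 5.58, and 0 of them were called. Their summed levels were 7.35 to 7.51, 6.84 to 7.10, 6.58 to 6.77 and 6.49 to 6.66 in Zfp125 cells, in that order, against 7.33 to 7.45, 6.86 to 7.04, 6.77 to 6.80 and 6.69 to 6.79 in EV cells. The adipocyte sums also lay apart, lower in Zfp125 cells, though no adipocyte marker had a mean above 4.80. Of 5 cholangiocyte markers, 2 were dim and the brightest, Sox9, averaged 9.90. Their summed level was 10.38 to 10.60 in Zfp125 cells and 10.22 to 10.38 in EV cells, and the ranges meet at 10.38. Of the 5, 0 were called and 2 had a negative change, and Sox9 was at 0.28 with no overlap.

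Of the 13 clusters, 1 fell in Zfp125 cells, that of Pcx, and 0 rose. Over all clusters 0.148% were called, made up of 0.123% lower and 0.0242% higher. Pcx encodes pyruvate carboxylase, the mitochondrial enzyme that turns pyruvate into oxaloacetate in the opening step of gluconeogenesis. The Foxo factors, the insulin receptor, its substrates, Ppargc1a and the other enzymes of gluconeogenesis did not pass the test, with changes of 0.02 to 0.27 in size and adjusted p-values of 0.393 to 0.962. Of the 13 changes, 9 were negative and 4 positive, with a median of -0.09, beside a median of -0.00095 over all clusters.

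**Figure D1:**
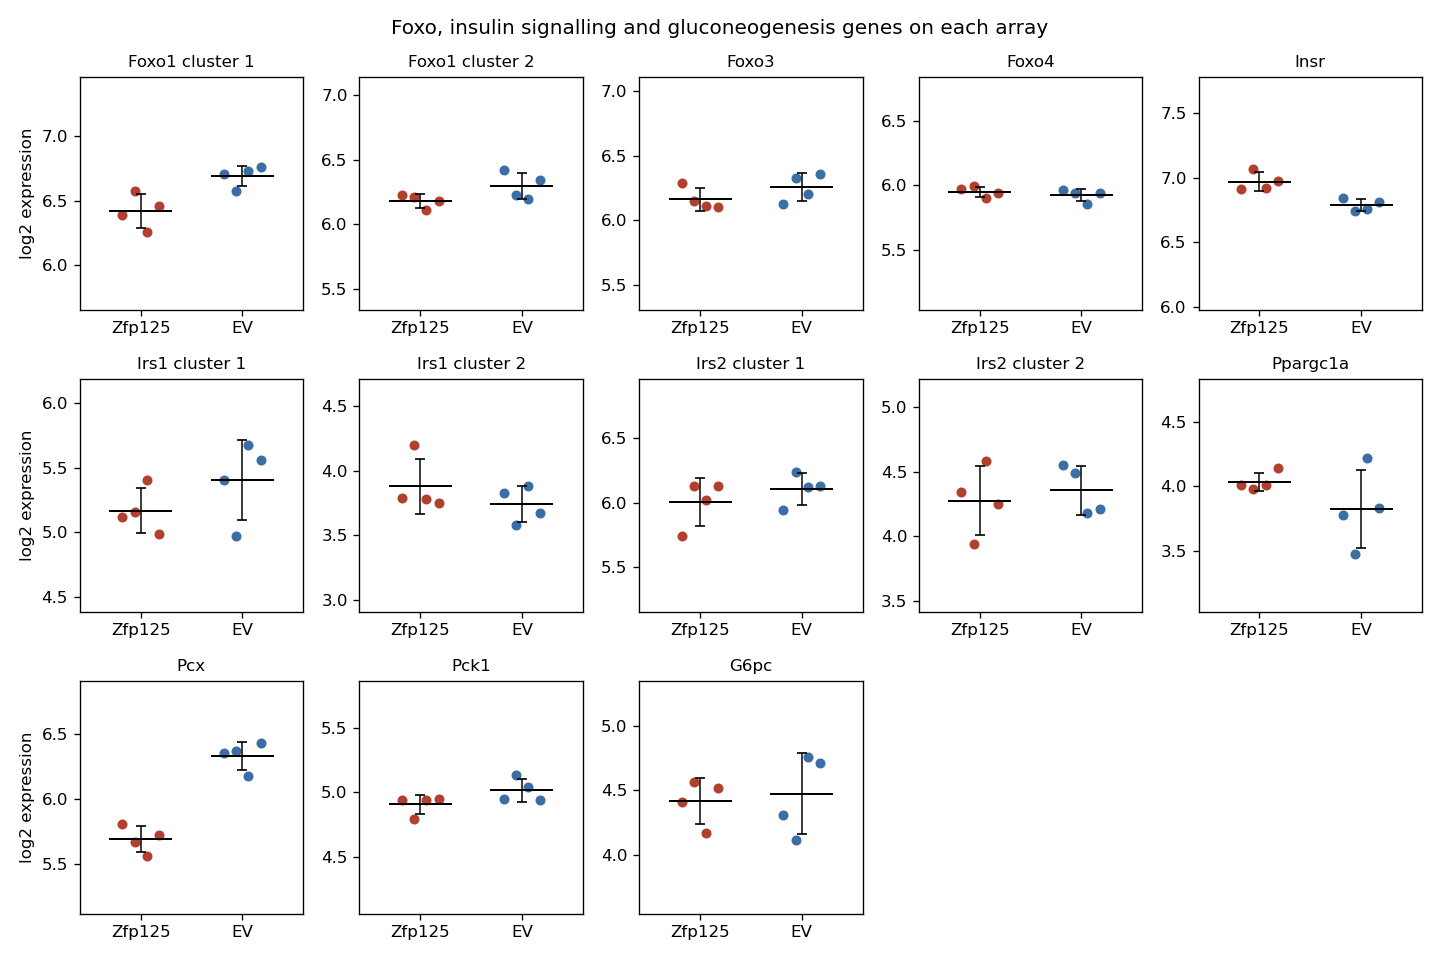
Log2 expression (vertical axes, each spanning the same height) of the 13 clusters on 4 Zfp125 arrays (left, red) and 4 EV arrays (right, blue); each point is an array, the line is the mean and the bar 1 SD. The Pcx groups lie apart, 5.56 to 5.81 in Zfp125 cells and 6.18 to 6.43 in EV cells, the Insr groups lie apart by less, and the other 11 clusters overlap.

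The promoters below are shown because Pcx is the member that fell, G6pc is the member whose liver promoter is best known for insulin response sequences bound by Foxo1, and Igfbp1 is a liver Foxo1 target outside the 10 genes that fell in these cells. Each is the 300-base window from 250 bases before to 50 bases after a transcription start, from RefSeq on GRCm38.p6, on the gene's own strand. The capitals mark TGTTT or its reverse complement AAACA, the core of the Foxo recognition sequence, which is not particular to Foxo among forkhead factors. The Pcx windows are chr19:4510222-4510521 and chr19:4594069-4594368, the G6pc window is chr11:101367466-101367765 and the Igfbp1 window is chr11:7197537-7197836, all on the plus strand.
Pcx window 1: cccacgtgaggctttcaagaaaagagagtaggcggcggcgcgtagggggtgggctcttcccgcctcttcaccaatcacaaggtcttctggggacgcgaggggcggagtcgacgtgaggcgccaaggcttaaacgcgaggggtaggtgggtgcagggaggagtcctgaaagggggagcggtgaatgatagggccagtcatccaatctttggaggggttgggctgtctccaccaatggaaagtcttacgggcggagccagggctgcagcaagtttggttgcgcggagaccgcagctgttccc
Pcx window 2: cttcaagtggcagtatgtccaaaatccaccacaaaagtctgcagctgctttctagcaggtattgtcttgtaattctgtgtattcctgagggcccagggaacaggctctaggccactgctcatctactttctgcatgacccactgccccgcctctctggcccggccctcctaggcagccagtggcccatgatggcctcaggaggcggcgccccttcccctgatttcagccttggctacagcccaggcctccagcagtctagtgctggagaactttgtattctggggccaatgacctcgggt
G6pc: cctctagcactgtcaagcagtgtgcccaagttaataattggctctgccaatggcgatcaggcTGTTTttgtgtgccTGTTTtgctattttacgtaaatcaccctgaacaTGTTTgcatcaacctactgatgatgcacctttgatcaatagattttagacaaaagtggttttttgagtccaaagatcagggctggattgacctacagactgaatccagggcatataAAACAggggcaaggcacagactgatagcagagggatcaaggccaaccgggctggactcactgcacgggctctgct
Igfbp1: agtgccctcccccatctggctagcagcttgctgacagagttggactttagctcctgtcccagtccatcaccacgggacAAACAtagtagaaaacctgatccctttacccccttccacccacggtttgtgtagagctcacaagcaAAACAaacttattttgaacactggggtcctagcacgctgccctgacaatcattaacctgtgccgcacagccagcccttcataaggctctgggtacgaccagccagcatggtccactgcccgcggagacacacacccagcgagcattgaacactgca
G6pc held 4 matches, beginning 188, 174, 141 and 25 bases before the start. Igfbp1 held 2, at 172 and 106 bases before the start, and neither Pcx window held one.

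Across the members, 8 of 10 genes had a window in the RefSeq table, and Foxo4 and Insr had none there. TGTTT or AAACA, read on both strands, was in 4 of the 9 windows, those of Foxo1, Irs1, Irs2 and G6pc, beside 50.5% of 32851 windows of the same length. At least 4 matches, the number in G6pc, were in 3.24% of all windows, and at least 2, the number in Igfbp1 and in Irs1, were in 22.0%. Foxo1 held 1 match, 196 bases before its start, Irs2 held 1 at 37 bases and Irs1 held 2 at 111 and 32 bases. The longer form TGTTTAC or GTAAACA, which contains the core, was in 0 of the 9 windows and in 3.65% of all windows. Foxo3, Ppargc1a and Pck1 held no match in this window. These matches are letters in a window and were not measured as binding, by Foxo or by any other protein. Of the 6 other called genes of the wider pathway lists, 5 had a window there and 4 of these held the core: Igfbp1 and Tat with 2 matches each and Foxa1 and Gckr with 1 each. Foxa1 also held the longer form, the Cdkn1a windows held no match, and Apoc3 had no window in the table.

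**Figure D2:**
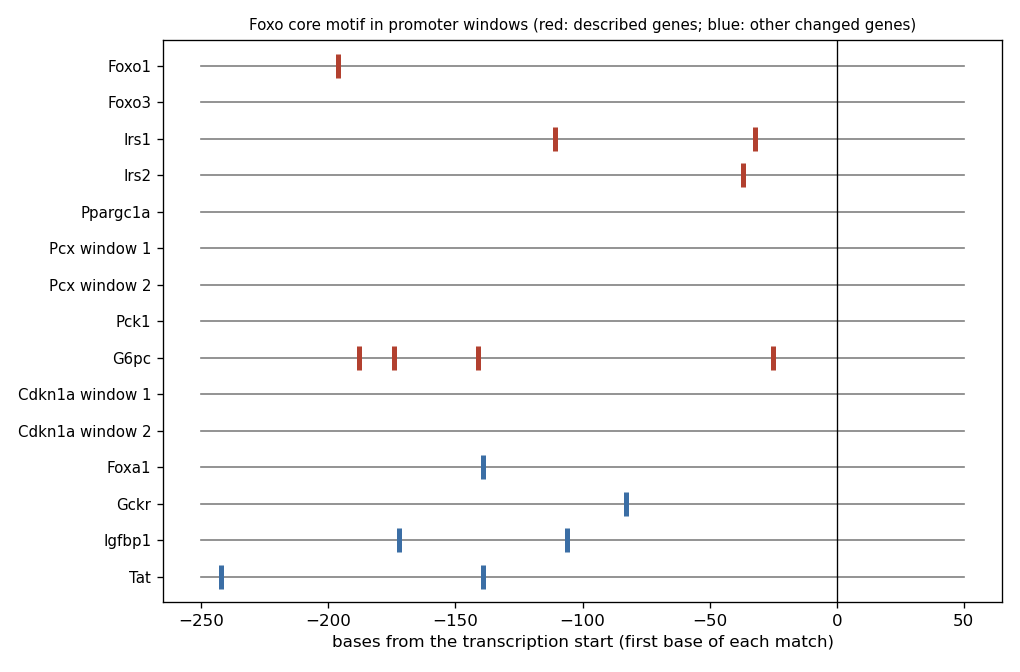
Position of each TGTTT or AAACA match (horizontal axis, bases from the transcription start) in the windows of the members (red) and of the other changed pathway genes (blue). G6pc holds 4 matches, Irs1, Igfbp1 and Tat hold 2 each, Foxo1, Irs2, Foxa1 and Gckr hold 1 each, and the Pcx, Pck1, Ppargc1a, Foxo3 and Cdkn1a windows hold 0.

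Foxo1, the main Foxo factor of the fasted liver, is the symbol of 2 clusters. Cluster 1 had 6.39, 6.58, 6.26 and 6.46 in replicates 1 to 4 of the Zfp125 cells, against 6.71, 6.58, 6.73 and 6.76 in EV cells. In 3 of 4 Zfp125 arrays it was below every EV array, and the groups overlapped through replicate 2. Its change was -0.27 ± 0.10 (SE), with a 95% interval of -0.49 to -0.06, and did not pass (limma, adjusted p = 0.393). Foxo1 cluster 2 had 6.23, 6.21, 6.11 and 6.18 in Zfp125 cells, against 6.42, 6.23, 6.20 and 6.34 in EV cells. Here 2 of 4 Zfp125 arrays lay above the lowest EV array, and the change was -0.11 ± 0.08 (interval -0.30 to 0.08, adjusted p = 0.747). The difference between the 2 clusters' changes was -0.16, which did not pass an exact permutation test (two-sided, p = 0.114; 70 assignments allow no p below 0.0286).

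Foxo3, whose DNA-binding domain is much like that of Foxo1 and which is studied in ageing and cell survival, had 6.29, 6.15, 6.11 and 6.10 in Zfp125 cells, against 6.13, 6.33, 6.20 and 6.36 in EV cells. The groups overlapped, and the change was -0.09 ± 0.09 (interval -0.30 to 0.11, adjusted p = 0.822). Foxo4, the X-linked member of the family, had 5.97, 5.99, 5.90 and 5.94 in Zfp125 cells and 5.96, 5.94, 5.85 and 5.94 in EV cells. It had the smallest change of the 13 clusters, 0.02 ± 0.08, with an interval of -0.15 to 0.19 (adjusted p = 0.962). Foxo6, the remaining member of the family and best known in brain, is outside the 10 genes and had a change of -0.17 ± 0.11 (adjusted p = 0.689). Of the 4 family genes 0 were called. Their intervals, with both Foxo1 clusters, exclude a change of 0.5 on the log2 scale in either direction. That of Foxo1 cluster 1 did so narrowly, reaching -0.49, and that of Foxo6 was -0.42 to 0.08.

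Insr encodes the insulin receptor, a membrane tyrosine kinase. It had 6.91, 7.07, 6.92 and 6.97 in Zfp125 cells, against 6.84, 6.74, 6.76 and 6.81 in EV cells. All 4 Zfp125 arrays were above all 4 EV arrays, by a small margin, and with Pcx this made 2 of 13 clusters whose groups did not overlap, beside 6.23% of all clusters. The change was 0.18 ± 0.08, a 1.14-fold higher level with a 95% interval of 1.00 to 1.28-fold. It did not pass over all clusters (limma, adjusted p = 0.518). With Pcx and Foxo1 cluster 1, Insr was among 3 of 13 clusters at an unadjusted p under 0.05, beside 9.43% of all clusters.

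The substrates carry the signal from the receptor. Irs1 cluster 1 had 5.12, 5.16, 5.41 and 4.99 in Zfp125 cells, against 5.41, 4.97, 5.68 and 5.56 in EV cells. The lowest array of all 8 was an EV array, and the change was -0.24 ± 0.16 (interval -0.60 to 0.12, adjusted p = 0.705). Irs1 cluster 2 was dim, with 3.79, 4.20, 3.78 and 3.75 in Zfp125 cells and 3.83, 3.58, 3.88 and 3.67 in EV cells. Its change had the other sign, 0.14 ± 0.12 (adjusted p = 0.799), so the 2 clusters gave no common direction. Whether both read the RNA of Irs1 was not checked. Replicate 2 of the Zfp125 cells stood above its group there, and without it the change was 0.03.

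Irs2, the substrate that carries much of the insulin signal in fasted liver and is itself a Foxo1 target, had 5.74, 6.13, 6.02 and 6.13 in cluster 1 in Zfp125 cells, against 5.94, 6.24, 6.12 and 6.13 in EV cells. The groups overlapped, and the change was -0.10 ± 0.11 (interval -0.36 to 0.16, adjusted p = 0.85). Cluster 2 carries both Irs2 and 9530052E02Rik, a long non-coding RNA gene that overlaps Irs2 in RefSeq. Which of these genes gives its signal was not checked. It had 4.34, 3.94, 4.58 and 4.25 in Zfp125 cells, against 4.55, 4.49, 4.18 and 4.21 in EV cells, with a change of -0.08 ± 0.15 (adjusted p = 0.924) that became 0.04 without Zfp125 replicate 2. Neither cluster separated the groups.

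**Figure D3:**
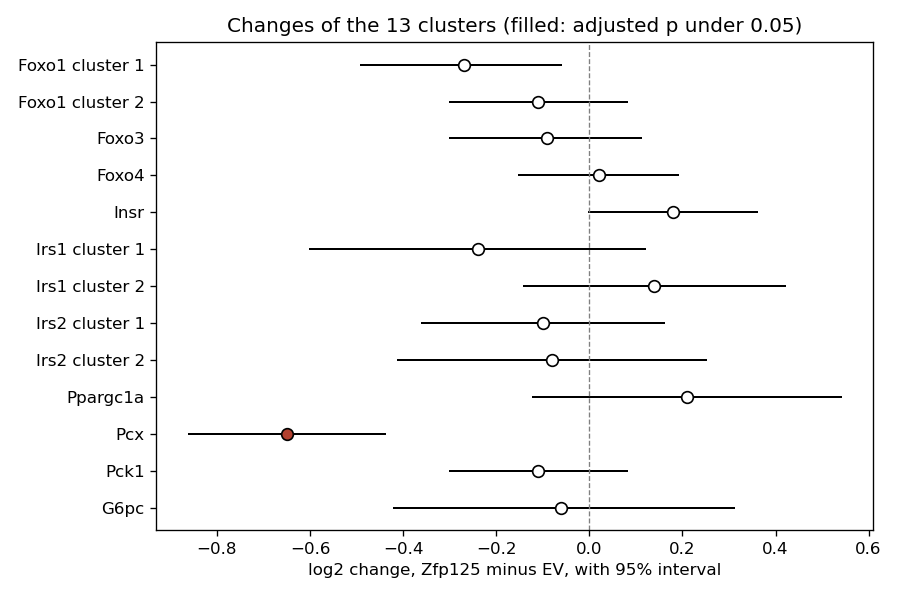
Log2 change, Zfp125 minus EV cells (horizontal axis), with its 95% interval from limma for each of the 13 clusters; the filled point is the cluster with an adjusted p under 0.05. Pcx lies at -0.65 with an interval of -0.86 to -0.44, and the other 12 changes lie between -0.27 and 0.21.

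Ppargc1a encodes PGC-1 alpha, the coactivator that fasting and glucagon induce in liver. It was dim, with 4.01, 3.98, 4.01 and 4.14 in Zfp125 cells, against 3.78, 3.48, 4.22 and 3.83 in EV cells. The highest and the lowest of the 8 arrays were both EV arrays, and the SD was 0.07 in Zfp125 cells and 0.31 in EV cells. The change was 0.21 ± 0.14 (interval -0.12 to 0.54, adjusted p = 0.718).

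Pcx had 5.81, 5.67, 5.56 and 5.72 in Zfp125 cells, against 6.36, 6.37, 6.18 and 6.43 in EV cells. Every Zfp125 array was below every EV array, and the means were 5.69 ± 0.11 and 6.34 ± 0.11 (SD, n = 4 each). Pcx fell by 0.65 ± 0.09 (SE), a 1.56-fold lower level (limma, adjusted p = 0.0439). The ratio of Zfp125 to EV was 0.639, with a 95% interval of 0.552 to 0.739. RNA of a culture does not tell fewer cells that express a gene from less RNA per cell. The hepatocyte markers had a lower sum in the same cells, weighted to Alb and Ttr. Their changes were negative in 8 of 9 genes, to unequal degrees, as given above. The part of these markers in the change of Pcx and in those of the pathway genes below was not tested. The direction was the same in all 17 alternatives, from -0.60 to -0.70, but the call was not. Among 22180 genes, each with its brightest cluster of 1 symbol, the adjusted p of Pcx was 0.00467. It was 0.0528 with median centring and 0.0838 without variance moderation, and it lay between 0.0729 (without EV replicate 3) and 0.152 (without Zfp125 replicate 2) when any 1 of the 8 arrays was left out.

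**Figure D4:**
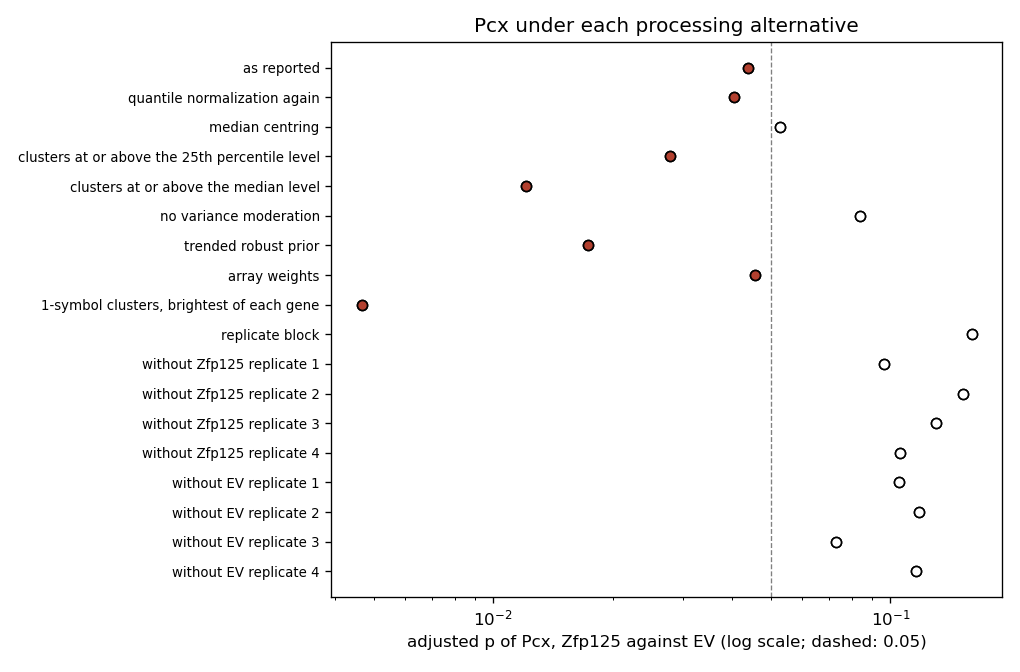
Adjusted p of Pcx (horizontal axis, log scale, dashed line at 0.05) as reported and under each of 17 alternatives; filled points are under 0.05. It ranges from 0.00467 with 1 cluster for each gene to 0.16 with the replicate number as a block, and is over 0.05 in 11 of the 17.

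Pck1 encodes the cytosolic phosphoenolpyruvate carboxykinase, which takes the oxaloacetate made by pyruvate carboxylase onward and is a standard marker of the fasting response. It had 4.94, 4.79, 4.94 and 4.95 in Zfp125 cells, against 4.95, 5.13, 5.04 and 4.94 in EV cells. The groups overlapped, and the change was -0.11 ± 0.09 (interval -0.30 to 0.08, adjusted p = 0.764). G6pc encodes the catalytic subunit of glucose 6-phosphatase, which releases free glucose as the last step of gluconeogenesis and of glycogen breakdown. It had 4.41, 4.56, 4.17 and 4.52 in Zfp125 cells, against 4.31, 4.11, 4.76 and 4.71 in EV cells. Both extremes were EV arrays, and the change was -0.06 ± 0.16 (interval -0.42 to 0.31, adjusted p = 0.956). It took the other sign, 0.02 to 0.04, without EV replicate 3, EV replicate 4 or Zfp125 replicate 3. Of the 12 uncalled clusters, 10 had intervals within 0.5 of zero on the log2 scale, and those of Irs1 cluster 1 and Ppargc1a reached further. Among the 10 are the dim Irs1 cluster 2 and Irs2 cluster 2. G6pc, also among them, had means of 4.41 in Zfp125 cells and 4.47 in EV cells, near the median of 4.34. At such levels a narrow interval bounds the change in signal and does not show that the RNA was unchanged.

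The clusters most like 2 members were sought among 13835 other named clusters at or above the median level, by the root-mean-square difference between values on 8 arrays, each centred on its own mean. Closest to Foxo1 cluster 1 were Man1a (0.033), a Golgi mannosidase, Ergic1 (0.043), a protein of the compartment between endoplasmic reticulum and Golgi, and Hs3st3b1 (0.05), a heparan sulfate sulfotransferase, beside a median of 0.218. Closest to Pcx were Gstp3 (0.073), a glutathione transferase, Mgam (0.091), an alpha-glucosidase, and Fdps (0.093), an enzyme of cholesterol synthesis, beside a median of 0.365. Their changes were -0.62, -0.53 and -0.61, with adjusted p-values of 0.107, 0.0772 and 0.0772. The values were matched over both groups, so changes near that of the member follow from the choice. This likeness is a description of these 8 arrays.

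The wider pathway was read through 8 lists with 213 genes, of which 195 were measured by a cluster of 1 symbol. Of the 185 measured genes that are no members, 5 fell and 1 rose, beside 0.221% called over the 22180 genes, 0.18% lower and 0.0406% higher. The lists hold genes that earlier results of these data had shown to change, so their counts are a description. At an unadjusted p under 0.05, used below for the lists, 4.56% of the 22180 genes were lower and 4.54% higher. Of 24 genes from the receptor to Akt, 0 were called, with a median change of 0.01, and 3 were higher and 0 lower at an unadjusted p under 0.05. Beside Insr these were the related receptor Igf1r with 0.34 ± 0.10 (adjusted p = 0.324) and Pik3r3, a regulatory subunit of phosphoinositide 3-kinase, with 0.34 ± 0.11 (adjusted p = 0.334). Of 21 brakes on insulin signalling, 0 were called, with a median of 0.00 and changes of -0.24 to 0.19. The members with the smallest p were the ubiquitin ligase Cblb with -0.24 ± 0.09, the phosphatase Ptpn2 with -0.18 ± 0.10 and the phosphatase Ptpn1 with 0.18 ± 0.11. At an unadjusted p under 0.05, 1 of the 21 was lower and 0 were higher.

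Of 26 genes whose proteins modify or bind Foxo proteins, 0 were called, with a median of -0.01, and 2 were higher and 0 lower at an unadjusted p under 0.05. These were the 14-3-3 protein gene Ywhaq with 0.32 ± 0.11 (adjusted p = 0.38) and the histone deacetylase Hdac7 with 0.21 ± 0.08 (adjusted p = 0.458), and the deacetylase Sirt2 had -0.22 ± 0.11. The other 3 clusters of Ywhaq had changes of -0.03, 0.26 and 0.25. In these 3 signalling lists no gene passed the test.

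**Figure D5:**
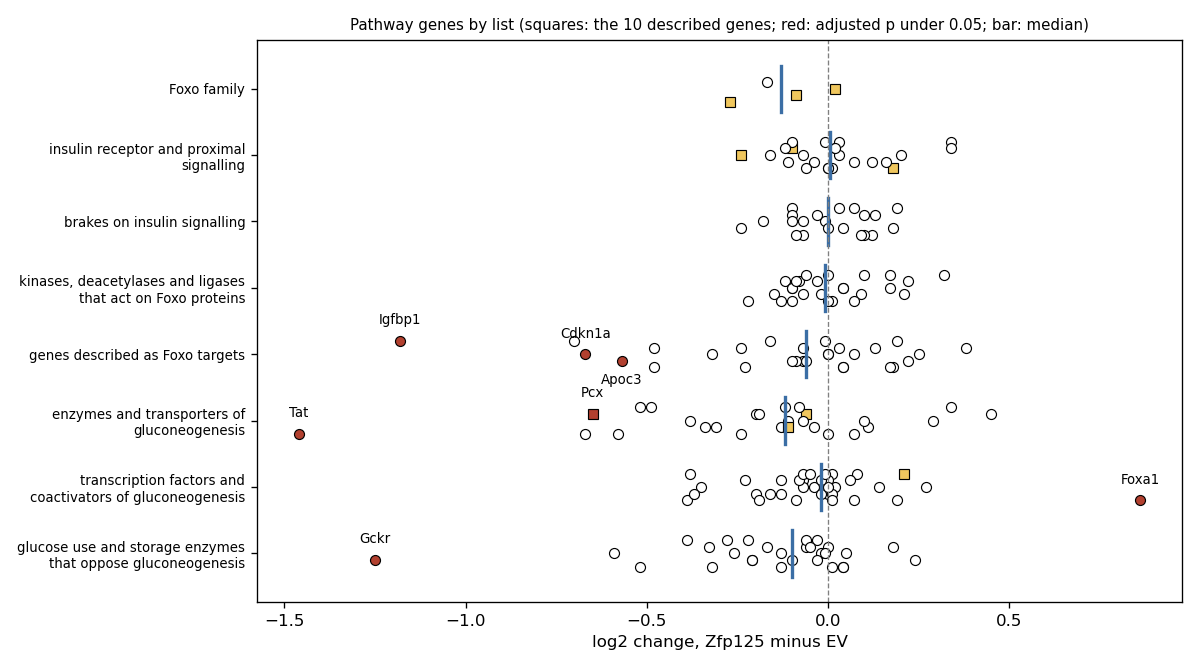
Log2 change, Zfp125 minus EV cells (horizontal axis), of each measured gene of the 8 lists; squares are the 10 described genes, red marks an adjusted p under 0.05 and the blue bar is the list's median. The 7 called genes are Igfbp1, Cdkn1a, Apoc3, Pcx, Tat, Foxa1 and Gckr, all in the lists of Foxo targets, gluconeogenesis and glucose use.

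Of 29 measured genes described elsewhere as Foxo targets, 3 fell and 0 rose, with a median change of -0.06, and 8 were lower and 3 higher at an unadjusted p under 0.05. The 3 higher ones, none of which passed, were Txnip with 0.38 ± 0.11, Rbl2 with 0.25 ± 0.10 and Trim63 with 0.22 ± 0.09. The lower ones that did not pass were Bnip3 with -0.70, Bcl6 and Ddit4 with -0.48 each, Trp53inp1 with -0.32 and Sod2 with -0.23. G6pc, Pck1 and Irs2, also described as Foxo1 targets, are counted in other lists and not in this one. Their changes were -0.06, -0.11 and -0.10 (Irs2 cluster 1), and none was called. Igfbp1 encodes an insulin-like growth factor binding protein that insulin represses through Foxo1 in liver. It had 5.16, 5.31, 5.54 and 5.70 in Zfp125 cells, against 6.73, 6.50, 6.62 and 6.57 in EV cells, with no overlap, and fell by 1.18 ± 0.13, a 2.26-fold lower level (adjusted p = 0.0117). Its call ended without Zfp125 replicate 2 (adjusted p = 0.0601). Cdkn1a, the cell cycle inhibitor p21 and also a p53 target, had 8.0 to 8.30 in Zfp125 cells and 8.70 to 8.87 in EV cells and fell by 0.67 ± 0.09 (adjusted p = 0.0364). Apoc3, an apolipoprotein that inhibits triglyceride clearance, had 5.93 to 6.12 in Zfp125 cells and 6.58 to 6.66 in EV cells and fell by 0.57 ± 0.08 (adjusted p = 0.0383). Leaving out 1 array ended the call of Cdkn1a in 7 of 8 cases and that of Apoc3 in all 8 (adjusted p up to 0.135 for each, without Zfp125 replicate 2).

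Of 27 measured enzymes and transporters of gluconeogenesis, 2 fell and 0 rose, with a median of -0.12, and at an unadjusted p under 0.05 there were 10 lower and 3 higher. The 3 higher ones, none of which passed, were Slc2a2 with 0.45 ± 0.10, Slc37a4 with 0.34 ± 0.10 and Pck2 with 0.29 ± 0.09. The lower ones that did not pass were Mpc1, given below, Gpt with -0.67, Prodh with -0.52 and Gpd1 with -0.49. Got1 with -0.38, Tpi1 with -0.34, Glud1 with -0.31 and Got2 with -0.20 were also among them. Beside Pcx, the gene that fell was Tat, the tyrosine aminotransferase that glucocorticoids and fasting induce. It had 5.50, 5.55, 5.11 and 5.68 in Zfp125 cells, against 6.88, 6.46, 7.12 and 7.20 in EV cells, and fell by 1.46 ± 0.18, a 2.74-fold lower level (adjusted p = 0.021). Tat lost its call in 6 of 8 such omissions (adjusted p up to 0.0844, without Zfp125 replicate 2). Mpc1, a subunit of the carrier that brings pyruvate into mitochondria to pyruvate carboxylase, had a change of -0.58 ± 0.10 with no overlap (adjusted p = 0.0772). Its other cluster had -0.08 ± 0.09 (adjusted p = 0.833), and which cluster reads the gene itself was not checked.

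Among 35 measured transcription factors and coactivators of gluconeogenesis, 1 rose and 0 fell, with a median of -0.02, and 5 were lower and 2 higher at an unadjusted p under 0.05. Foxa1, a forkhead factor of liver outside the Foxo family, had 6.52, 6.81, 6.64 and 6.37 in Zfp125 cells, against 5.90, 5.74, 5.69 and 5.55 in EV cells, and rose by 0.86 ± 0.12 (adjusted p = 0.0364). Leaving out 1 array ended its call in 7 of 8 cases (adjusted p up to 0.119, without Zfp125 replicate 3). Hnf4a, a nuclear receptor that drives hepatocyte genes, was at -0.38 ± 0.08 (adjusted p = 0.14), and Sik1, a kinase that restrains the glucagon response, at -0.37 ± 0.09 (adjusted p = 0.207), both with no overlap. Of 29 genes of glucose use and storage, 1 fell and 0 rose, with a median of -0.10, and 8 were lower and 0 higher at an unadjusted p under 0.05. The list mixes genes that act for and against glucose use and storage, so its counts give no direction of glucose use. Gckr, which holds glucokinase in the nucleus, had 5.31, 5.12, 5.22 and 5.11 in Zfp125 cells, against 6.43, 6.48, 6.21 and 6.64 in EV cells, and fell by 1.25 ± 0.11, a 2.38-fold lower level (adjusted p = 0.00422). Its call held on each omission of 1 array, with adjusted p-values of 0.00929 to 0.03, but ended without variance moderation (adjusted p = 0.0532) and with the replicate block (adjusted p = 0.0655). These 2 settings ended the calls of all 7 pathway genes, with adjusted p-values of 0.0532 to 0.133 and of 0.0655 to 0.223. Mlxipl, the carbohydrate response factor, had -0.59 ± 0.10 (adjusted p = 0.0713), and Gbe1, the glycogen branching enzyme, had -0.52 ± 0.12 (adjusted p = 0.158).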

How the data were processed

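RNA of 4 Zfp125 and 4 EV samples, grouped and numbered by their titles, was hybridised to Affymetrix MoGene 2.0 ST arrays. The deposited values are log2 expression per transcript cluster, made by the authors with Affymetrix Expression Console and Transcriptome Analysis Console, per the submitters' processing notes. Their range, 0.92 to 13.98, shows the log2 scale. The sources used here give no versions, background correction or normalization. Precision is limited by how many arrays there are.

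The platform annotation names 23521 clusters with 1 symbol and 1814 with several, and leaves 16010 unnamed here. Symbols were updated through Entrez identifiers to the GRCm38.p6 RefSeq table, which held 23328 of the 23521. All 41345 clusters were fitted together by lmFit and eBayes (limma 3.58.1, R 4.3.3), without renormalization, and all tests were two-sided. A list gene was read through its brightest 1-symbol cluster, and 18 of 213 list genes are not analysed here. Members and lists were chosen with earlier results of these data known. Named are every member cluster, each list's called genes and the 3 with the smallest p, and the 3 clusters most like Foxo1 and Pcx. Txnip, Rbl2, Trim63, Slc2a2, Slc37a4, Pck2, Sox9 and the hepatocyte markers other than Hnf4a fall outside this rule and were picked once their values were known. The same holds for the uncalled lower genes named in the Foxo target and gluconeogenesis lists, other than Mpc1.

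On simulated data with 200 of 41345 clusters changed between Zfp125 and EV, the fit recovered 22.4% of changes of 0.5 on the log2 scale, 74.6% of changes of 1 and 95.5% of changes of 2, with 11 false calls among 139. The simulated noise was normal and independent, with each cluster's own estimated SD and no shared array effects. Recovery in the real data may therefore differ. Alternatives covered normalization, centring, dim clusters, variance moderation, array weights, the clusters tested, the replicate number as a block and each array left out. Plots were drawn with matplotlib 3.10.9.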

Additional observations from a re-analysis of the deposited data

Results flagged for a closer look

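Of 26 groups of 4 arrays, 2 held an array that lay far from the other 3, where chance gives such a flag in about 1 of 20 groups. Both were replicate 2 of the Zfp125 cells. In Irs1 cluster 2 it was high, at 4.20, with the others at 3.75 to 3.79. For Pck1 it was low, at 4.79, with the others at 4.94 to 4.95. Without it the change of Pck1 was -0.07, and neither gene was called with or without it.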

How the results depend on the processing

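Of the 13 member clusters, the 12 uncalled ones stayed uncalled in every alternative in which they were tested. The member calls, 1 as reported, were 0 with median centring, without variance moderation, with the replicate block and in all 8 omissions of 1 array (range 0 to 0). Over all clusters, 61 calls became 94 and 232 among clusters at or above the 25th percentile and median level, 196 with a trended, robust prior, 240 among 22180 genes, 4 without moderation, 0 with the replicate block (limma; 3530 at an unadjusted p under 0.05) and 16 to 61 on omitting 1 array, lowest without Zfp125 replicate 1. Of the pathway genes, 7 calls became 12 at or above the median level, 14 with the trended prior, 15 among 22180 genes, 0 without moderation, 0 with the replicate block, and 1 to 5 on omitting 1 array. Fewer clusters tested and fewer samples are part of the construction of these filters and omissions, and otherwise the cause was not tested. The replicate numbers were not shown to pair the samples: deviations from group means correlated at -0.041 to 0.03 between same-numbered arrays and at -0.042 to 0.053 between others. The block left a Pcx change of -0.65 (adjusted p = 0.16). The difference between the Foxo1 clusters stayed at -0.20 to -0.12 on omitting 1 array and was -0.16 with pairs as a replicate block. Dim clusters (Irs1 cluster 2, Irs2 cluster 2 of 2 genes, Ppargc1a) and that of G6pc, just above the median level, limit what can be read from these genes.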
